A study of Arabidopsis thaliana with 72 samples.

Results

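The 103 transcripts described here had strong daily rhythms with a peak around dusk in untreated wild-type Arabidopsis seedlings. They were chosen by their values in the untreated arrays: a 24 h cosine was fitted to the 12 time means of log2(signal + 16), and a probe set was kept with an amplitude of 0.7 or more, an R squared of 0.6 or more and a peak from 9 h to under 15 h. Of 22746 probe sets without array controls, 110 passed, and 7 of them were left out because the rule sets 11 genes aside by name, among them GI and the cold-regulated genes COR27, COR28, COR47 and LTI30. The untreated amplitudes, peak hours, periods and fits below are therefore a description of how the transcripts were selected, with no test. Of the 103 probe sets, 50 had 1 gene in the annotation, for 49 different genes, and 53 had no gene listed there and are given by probe set name.

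Total RNA from aerial tissue was measured on 72 ATH1 arrays. The conditions were C24 wild-type seedlings given nicotinamide, seedlings of the mutant toc1-1, and untreated C24 wild-type seedlings. All seedlings grew for 11 days in 12 h light and 12 h dark at 19 °C and then moved to continuous light, and each condition has 2 replicate time courses sampled every 4 h from 49 to 93 h, 24 arrays in all. The labels give neither the dose of nicotinamide nor the accession background of toc1-1, and more toc1-1 seeds were plated, so genetic background and plating density cannot be told apart from the mutation. They do not say that replicate time courses came from separate batches of seedlings, and p-values then cover only the variation among these samples, which may be technical. The hour 0 of the labels is not defined in the sources used here; "dusk" reads hours modulo 24 as if 0 h were dawn.

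The plant circadian clock is a set of transcription loops in which morning-expressed and evening-expressed regulators repress one another. TOC1 is one of the evening repressors, and the toc1-1 mutation is known to shorten the period. Nicotinamide inhibits ADP-ribosyl cyclase, which makes cyclic ADP-ribose, and is known to lengthen the period and to suppress the daily oscillation of free calcium in the cytosol. Genes that peak around dusk often include those for responses to cold and drought and for the use of starch in the coming night.

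The median signal of an array was 18.9 to 31.1 under nicotinamide, 33.5 to 37.3 in toc1-1 and 32.5 to 38.1 in untreated seedlings. The lowest correlation of log2 signals between replicates of a time was 0.949 under nicotinamide, 0.975 in toc1-1 and 0.981 in untreated seedlings. On 1 untreated array, 93 h replicate 1, summed signals stood under those of its partner array by differing amounts. Dusk probe sets that peaked later in toc1-1 than in untreated seedlings summed to 173 there and 1386 on the partner. The other dusk probe sets summed to 11195 and 19054, and the shoot markers below to 11532 and 13313. Shoot markers, 3 of 12 on the array with a name, summed to between 6840.8 and 18116 signal units on every array. Under nicotinamide LHCB4.1 and LHCB4.2 were lower than untreated by log2 differences of -0.28 and -0.86 (limma adjusted p = 0.000333 and 2.44e-10). There 48.4% of all tested probe sets were called lower. RCA was not called (0.13, limma adjusted p = 0.0793), and in toc1-1 0 of the 3 were called.

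Under nicotinamide the dusk transcripts peaked in the subjective night, and in toc1-1 they peaked before dusk. The median peak was 20.1 h under nicotinamide, 9.63 h in toc1-1 and 12.5 h in untreated seedlings. The 2 time courses gave medians of 20.0 and 20.7 h under nicotinamide, 9.48 and 9.91 h in toc1-1, and 12.0 and 13.2 h in untreated seedlings, so these medians do not overlap between conditions. Peaks of single probe sets do overlap, with toc1-1 peaks from 4.43 to 14.0 h and untreated peaks from 9.79 to 14.9 h. Relative to the untreated peak of the same probe set, the median shift was 7.27 h under nicotinamide (quartiles 5.27 and 8.47 h) and -3.75 h in toc1-1 (quartiles -4.25 and -2.93 h), where a positive shift is a later peak. The peak was later in 91 of 103 probe sets under nicotinamide and earlier in 85 of 103 in toc1-1. Both nicotinamide time courses were later than the untreated peak for 85 probe sets, and both toc1-1 time courses were earlier for 83.

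**Figure D1:**
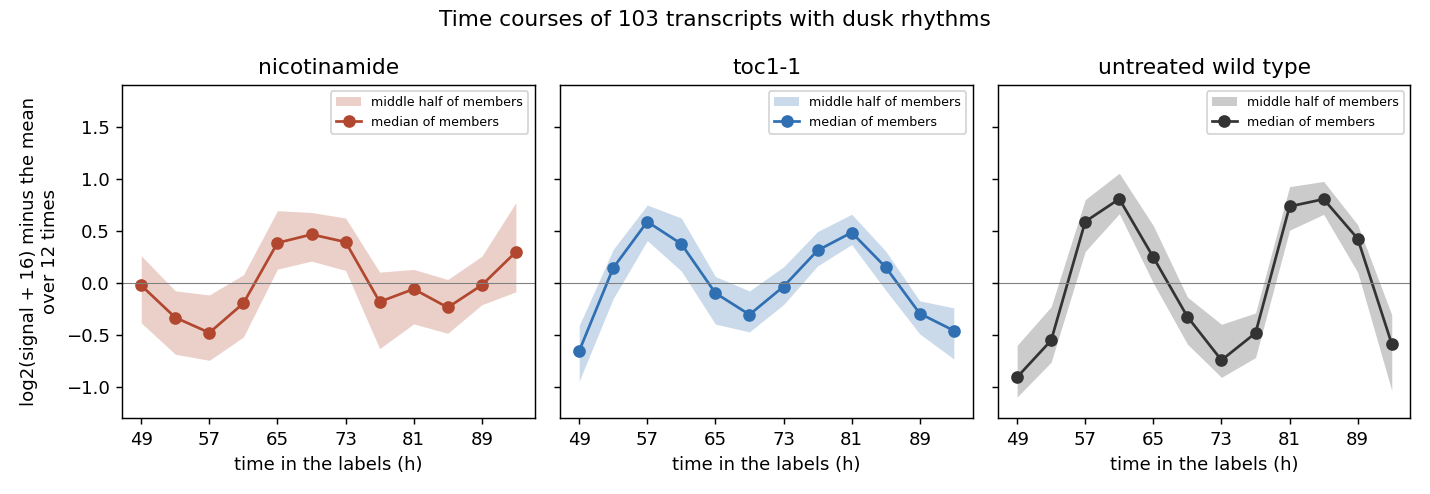
Time courses of the 103 probe sets, as log2(signal + 16) minus each probe set's mean over 12 times (y axis) against the time in the labels in hours (x axis), for nicotinamide, toc1-1 and untreated wild type. Points are medians over probe sets and bands run from the 25th to the 75th percentile; the untreated maxima lie at 61 and 85 h, the toc1-1 maxima at 57 and 81 h, and the nicotinamide maximum of the first cycle at 69 h.

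The median time courses show these shifts directly. Under nicotinamide the median of the centred log2 values was lowest at 57 h (-0.48), highest at 69 h (0.46) and at 0.30 when sampling ended at 93 h. In toc1-1 the median was highest at 57 h (0.59) and 81 h (0.48), with a low of -0.31 at 69 h between them. In untreated seedlings it was highest at 61 h (0.81) and 85 h (0.80), with a low of -0.74 at 73 h. The distance between the conditions was not the same in both cycles. With each cycle fitted alone, the median nicotinamide peak was 19.2 h in the first (49 to 69 h) and 22.6 h in the second (73 to 93 h). The toc1-1 median was 10.7 h and then 8.07 h, and the untreated median 12.9 h and then 12.4 h.

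A single period fitted to all 103 probe sets together was 26.5 h under nicotinamide, 21.9 h in toc1-1 and 23.7 h in untreated seedlings. The mean over the 2 time courses was 26.4 ± 0.141 h under nicotinamide (SD, n = 2), 21.9 h in both toc1-1 time courses, and 23.75 ± 0.212 h in untreated seedlings (SD, n = 2). The rule asked for a good 24 h fit in the untreated arrays, so the untreated period is not independent of the choice. The first time was 49 h, so a peak hour read from a 24 h cosine also carries the period. The period of nicotinamide seedlings was 26 h without the 3 arrays whose titles end in 2.

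**Figure D2:**
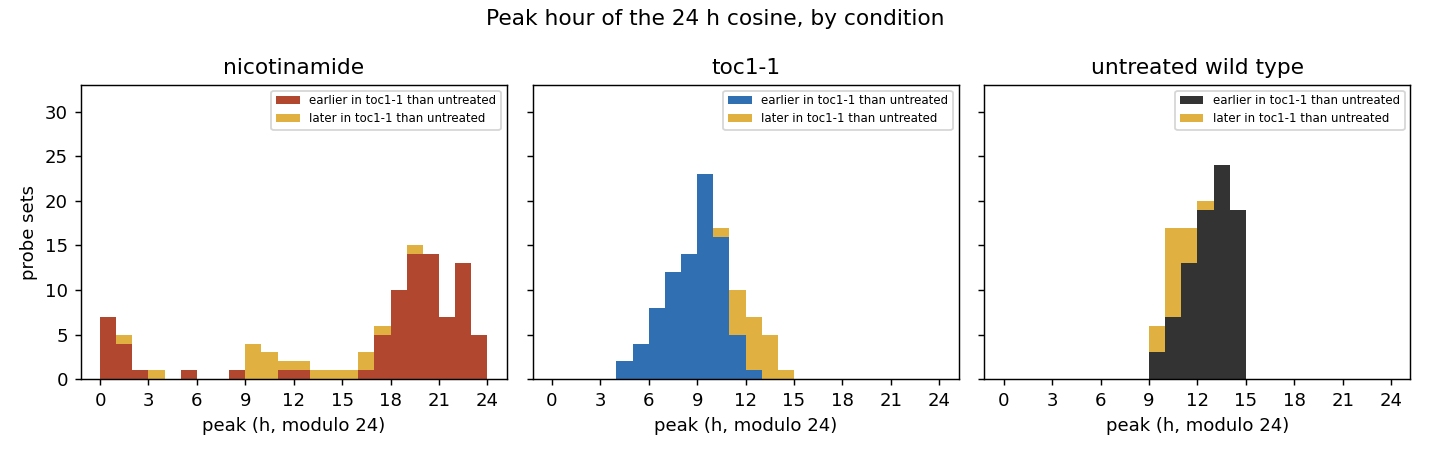
Peak hour of the 24 h cosine, modulo 24 (x axis), against the number of probe sets (y axis) for nicotinamide, toc1-1 and untreated wild type. Yellow marks the 18 probe sets that peaked later in toc1-1 than in untreated seedlings; the other 85 peaked earlier there, and the nicotinamide peaks of most of them lie between 16 and 24 h.

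The rule did not use the nicotinamide and toc1-1 arrays, so rhythm there could be tested. A limma fit of all 72 arrays, which tested both terms of the 24 h cosine jointly (moderated F) and adjusted p by Benjamini-Hochberg over 13647 probe sets, included 98 of the 103. The other 5, of low mean signal, were AT1G17665, AT4G39675, AT1G52070, a jacalin-like lectin, AT3G28550, an extensin-like cell wall protein, and 253416_at. Under nicotinamide 79 of 98 were rhythmic at an adjusted p under 0.05, against 32% of all tested probe sets. In toc1-1 83 of 98 were rhythmic, against 8.54% of all tested. Without toc1-1 replicate 1 the toc1-1 count was 30, and without toc1-1 replicate 2 it was 56. No share of all tested probe sets was taken with a replicate left out. With all arrays, both rhythms were called for 70 probe sets, nicotinamide's alone for 9, toc1-1's alone for 13 and neither for 6.

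The rhythm itself differed between nicotinamide and toc1-1 seedlings for 83 of 98 (22.9% of all tested). When the cosine terms were taken at each condition's own period the count was 26; there, phases are read from hour 0 at unequal periods. Amplitude was lower than untreated for 98 of 103 probe sets under nicotinamide and for 103 in toc1-1, given here as a description because the rule asked for a high untreated amplitude. The median amplitude was 0.54 under nicotinamide, 0.53 in toc1-1 and 0.88 in untreated seedlings on the log2 scale, and the median of each probe set's ratio to its untreated amplitude was 55.8% under nicotinamide and 59.1% in toc1-1. With each cycle fitted alone, median amplitudes were 0.64 and then 0.49 under nicotinamide, 0.61 and then 0.51 in toc1-1, and 0.89 in both untreated cycles.

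**Figure D3:**
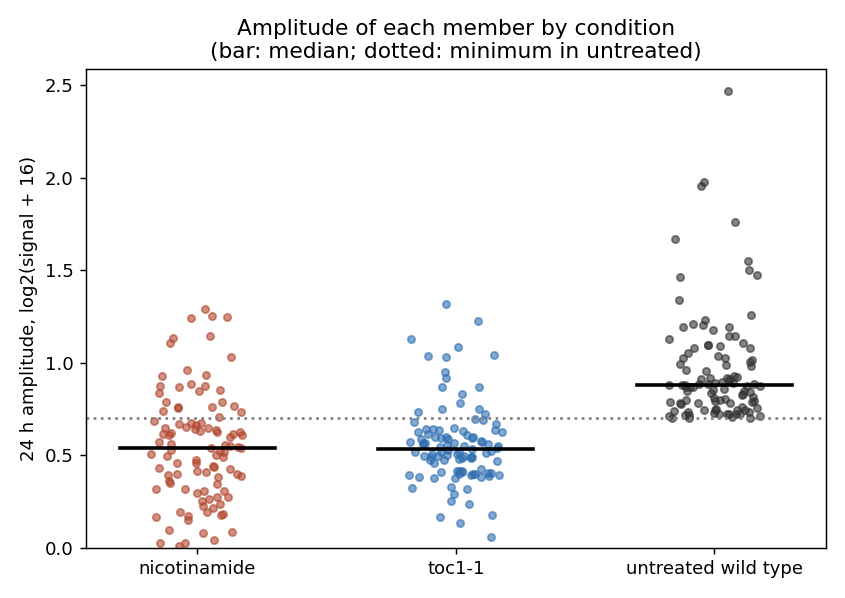
Amplitude of the 24 h cosine on the log2(signal + 16) scale (y axis) for each of the 103 probe sets in nicotinamide, toc1-1 and untreated wild-type seedlings. Each point is a probe set, bars are medians (0.54, 0.53 and 0.88) and the dotted line is the minimum of 0.7 that chose the untreated values.

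The largest untreated amplitudes with a gene name belonged to AT5G62360, of the invertase and pectin methylesterase inhibitor family. Its signal over 24 arrays had a lowest, median and highest value of 8.89, 51.8 and 96.3 under nicotinamide, 8.85, 60.9 and 223 in toc1-1, and 5.57, 83.5 and 390 in untreated seedlings. At 57 h the replicates read 29.6 and 48.5 under nicotinamide, 182 and 223 in toc1-1, and 390 and 183 untreated. Its maxima were highest in untreated seedlings, and the ranges of the conditions overlap. The amplitude was 0.55 ± 0.124 under nicotinamide (SE, limma adjusted p = 0.00264), 1.09 ± 0.124 in toc1-1 (limma adjusted p = 5.79e-08) and 1.96 untreated. It peaked at 0.51 h under nicotinamide, 9.56 h in toc1-1 and 12.5 h untreated. The amplitude difference, nicotinamide minus toc1-1, was -0.53 ± 0.175 (limma adjusted p = 0.0549), which did not pass the threshold but did after quantile normalization (adjusted p = 0.0392) and with time courses as a random block (adjusted p = 0.0308).

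AT3G62550, a universal stress protein, kept a large rhythm in every condition. Signals at 69 h were 770 and 801 under nicotinamide, 195 and 546 in toc1-1 and 433 and 517 untreated, while at 57 h they were 74.9 and 152 under nicotinamide, 1348 and 1399 in toc1-1 and 1460 and 961 untreated. Nicotinamide seedlings were therefore high at 69 h, when the others had passed their peak. The amplitude was 1.29 ± 0.116 with a peak at 20.8 h under nicotinamide, 1.04 ± 0.116 with a peak at 9.22 h in toc1-1, and 1.76 with a peak at 13.0 h untreated (SE from the limma fit). Its mean level was lower under nicotinamide (log2 difference -0.99 ± 0.116, limma adjusted p = 2.29e-10), and the toc1-1 minus untreated difference was 0.08 ± 0.116 (limma adjusted p = 0.598).

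AT4G32340, a tetratricopeptide repeat-like protein, also peaked late and low under nicotinamide. Over 24 arrays its lowest, median and highest signals were 15.7, 51 and 166 under nicotinamide, 35.3, 204 and 473 in toc1-1, and 29.9, 227 and 845 untreated. It peaked at 22.9 h under nicotinamide, 11.4 h in toc1-1 and 14.3 h untreated. Its mean level was lower under nicotinamide by a log2 difference of -1.51 ± 0.107 (limma adjusted p = 8.39e-17), with -1.60 and -1.42 in the 2 time courses.

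AT1G07050, which carries the CCT motif of CONSTANS-like regulators, was near the lower limit at its troughs. Its highest signal was 67.8 under nicotinamide, 142 in toc1-1 and 119 untreated. It peaked at 21.0 h under nicotinamide, 8.87 h in toc1-1 and 13.5 h untreated. AT2G47890, a B-box zinc finger protein with a CCT motif, peaked at 20.9 h under nicotinamide, 8.29 h in toc1-1 and 12.8 h untreated. The DnaJ chaperone gene AT1G56300 peaked at 20.2 h under nicotinamide, 7.17 h in toc1-1 and 11.8 h untreated.

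The neighbouring loci AT4G30650 and AT4G30660, of the low temperature and salt responsive family, peaked in the order of the other dusk transcripts. Their peaks were closer to one another under nicotinamide than in toc1-1 or untreated seedlings. AT4G30650 peaked at 0.66 h under nicotinamide, 10.5 h in toc1-1 and 14.3 h untreated. AT4G30660 peaked at 0.51 h under nicotinamide, 8.55 h in toc1-1 and 12.2 h untreated. The gap between the 2 loci was not tested. AT4G30660 had a median signal of 95.8 under nicotinamide, 360 in toc1-1 and 324 in untreated seedlings. Its mean level under nicotinamide was lower, with a log2 difference of -1.55 ± 0.076 (limma adjusted p = 2.45e-22). AT4G30650 fell by 0.51 ± 0.0863 (limma adjusted p = 1.2e-06).

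COR15B, a cold-regulated protein of the chloroplast, was the only named transcript of the 14-gene cold list kept among the 103. Listed genes without a name on the array could be among the 53 probe sets with no gene listed. Of the 6 cold genes with a name on the array, COR27, COR28, COR47 and LTI30 also met the limits on amplitude, R squared and peak (untreated peaks of 13.7, 14.1, 13.0 and 11.4 h) and were left out only by name; COR15A did not meet them. Its lowest, median and highest signals were 17.1, 45.9 and 106 under nicotinamide, 49.8, 137 and 260 in toc1-1, and 19.4, 83.5 and 318 untreated. The nicotinamide and toc1-1 ranges overlap between 49.8 and 106. It peaked at 22.8 h under nicotinamide, 5.97 h in toc1-1 and 13.0 h untreated, and the toc1-1 peaks of its time courses were 6.90 and 4.79 h. Its mean level was lower under nicotinamide (-0.87 ± 0.0938, limma adjusted p = 2.65e-11) and higher in toc1-1 (0.29 ± 0.0938, limma adjusted p = 0.0103, and 0.245 with time courses as a random block).

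DPE1 is the disproportionating enzyme that works on the malto-oligosaccharides of starch breakdown. It was the only member among the 2 genes of the 15-gene starch list with a name on the array. Its signal was 96.0 and 74.9 at 49 h under nicotinamide, 68.0 and 65.4 in toc1-1 and 64.9 and 70.1 untreated, but at 61 h it was 34.7 and 28.6 under nicotinamide, 228 and 160 in toc1-1 and 250 and 168 untreated. Both nicotinamide replicates were low at 61 h, when both others were high. It peaked at 1.36 h under nicotinamide, 10.1 h in toc1-1 and 13.6 h untreated. Its mean level fell by 1.34 ± 0.0742 under nicotinamide (limma adjusted p = 1.93e-20), and the toc1-1 difference was 0.09 ± 0.0742 (limma adjusted p = 0.316).

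Of the lists, the supplied annotation gives a named probe set to only a few genes. These are 1 of 12 evening clock, 1 of 9 morning clock and 1 of 6 photoperiod genes, and 2 of 15 starch and 6 of 14 cold genes. The other listed genes may be measured without a name, also among the 53 probe sets with no gene listed. These lists were chosen with earlier results of these data known. Under nicotinamide the mean level was called higher for the 1 evening clock, the 1 morning clock and the 1 photoperiod gene, lower for both starch genes, and higher for 4 and lower for 2 cold genes, where 30.9% of all tested probe sets were called higher and 48.4% lower. In toc1-1 it was called higher for 2 and lower for 2 of the 6 cold genes, where 22.1% of all tested were called higher and 19.6% lower. With so few genes per list, nothing is read from these counts. The second starch gene, PWD, a water dikinase of starch phosphorylation, fell by 1.24 under nicotinamide (limma adjusted p = 2.48e-14), with 0.11 in toc1-1 (limma adjusted p = 0.39).

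Amplitude under nicotinamide was compared with that in toc1-1 for the 92 probe sets rhythmic in either. It was higher under nicotinamide for 6 of 92 (4.71% of the 4860 probe sets compared) and lower for 4 of 92 (1.44%). The median amplitude difference over the 103 was 0.01. The counts rest on the toc1-1 replicates: the higher count was 3 without toc1-1 replicate 1 and 0 without replicate 2 (limma, 15 and 8 at an unadjusted p under 0.05), and the lower count was 0 without toc1-1 replicate 1 and 1 without replicate 2 (2 and 18 unadjusted), and 7 without either nicotinamide replicate. The higher count was 10 without nicotinamide replicate 2.

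The 6 were both probe sets of AT2G30600, a BTB/POZ domain protein, AT1G70820, a putative phosphoglucomutase, AT3G47160, a RING finger protein, 248793_at and 264524_at. The first 3 named probe sets and the 2 unnamed ones were also the 5 whose nicotinamide amplitude exceeded the untreated one. AT1G70820 had signals of 13.6 and 23.4 at 57 h under nicotinamide, 338 and 245 in toc1-1 and 278 and 161 untreated, and at 65 h 169 and 163 under nicotinamide, 76.9 and 93.8 in toc1-1 and 129 and 137 untreated. The order of the conditions was thus opposite at the 2 times. Its amplitude was 1.25 ± 0.0863 under nicotinamide and 0.56 ± 0.0863 in toc1-1, a difference of 0.69 ± 0.122 (limma adjusted p = 0.000514, and 0.0854 without toc1-1 replicate 2). The amplitude difference of AT2G30600 was 0.48 ± 0.118 (limma adjusted p = 0.0114) with 267523_at and 0.58 ± 0.129 (limma adjusted p = 0.00589) with 267524_at, and 267523_at lost its call after quantile normalization (adjusted p = 0.0567).

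Of the 4 with the lower nicotinamide amplitude, AT4G01870, a TolB-related protein, has a name, and the others are 246831_at, 252927_at and 266330_at. AT4G01870 ran high and nearly flat under nicotinamide, between 2255 and 4830 signal units (median 3842), against 338 to 2261 in toc1-1 (median 1114) and 117 to 1771 untreated (median 643). The nicotinamide range overlaps the toc1-1 range and lies above every untreated array. Its amplitude was 0.15 ± 0.094 under nicotinamide and 0.59 ± 0.094 in toc1-1, a difference of -0.44 ± 0.133 (limma adjusted p = 0.0399, and 0.0566 after quantile normalization).

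Mean levels over the 12 times were compared with untreated seedlings. The rule did not use the nicotinamide and toc1-1 arrays, but it used the untreated ones, and a transcript dim on all of them could not reach its amplitude limit, so the untreated levels are not independent of the choice. Under nicotinamide 46 of 98 rose and 47 of 98 fell, where 30.9% of all tested probe sets rose and 48.4% fell. Quantile normalization changed the whole-array split to 40.2% higher and 39.5% lower, and gave 46 and 45 of the dusk transcripts; the median difference over all tested probe sets was -0.12 with the deposited scaling and 0.00357 after it. In toc1-1 29 of 98 rose, where 22.1% of all tested did, and 19 of 98 fell, where 19.6% of all tested did. With time courses as a random block the toc1-1 counts were 16 and 10, with no share of all tested probe sets taken at that setting. The median log2 difference of the 98 was -0.07 under nicotinamide and 0.03 in toc1-1, against -0.12 and 0.02 over all tested probe sets. Differences ran from -3.11 to 2.48 under nicotinamide and from -2.35 to 0.76 in toc1-1. The 2 comparisons share the untreated arrays.

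**Figure D4:**
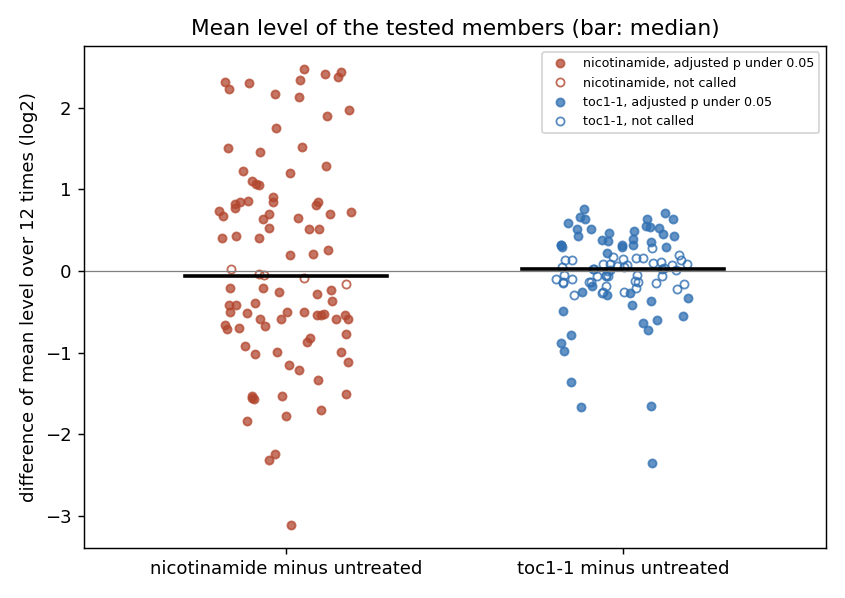
Difference of mean log2(signal + 16) over 12 times from untreated wild type (y axis) for the 98 tested probe sets, nicotinamide at the left and toc1-1 at the right. Filled points have a limma adjusted p under 0.05, open points do not, and bars are medians (-0.07 and 0.03); the nicotinamide differences run from -3.11 to 2.48 and the toc1-1 differences from -2.35 to 0.76.

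A change of at least 2-fold that was called occurred under nicotinamide in 22 dusk transcripts upward and 16 downward, and 4.81% and 8.82% of all tested probe sets changed so. In toc1-1, 4 fell by as much and 0 rose, and 0.293% of all tested probe sets fell and 0.161% rose so. The 4 were 255516_at, AT4G30170, 249375_at and 250437_at. Choice by untreated amplitude favours transcripts bright in untreated seedlings, so the falls in both comparisons are a description, not independent of the rule. AT3G15450, an aluminium-induced protein with YGL and LRDR motifs, read 584 to 3360 under nicotinamide (median 2062), 274 to 936 in toc1-1 (median 540) and 133 to 1137 untreated (median 402). Every nicotinamide array from 57 h on was above all toc1-1 and untreated arrays. Its log2 difference was 2.17 ± 0.0896 under nicotinamide (limma adjusted p = 5.58e-25) and 0.30 ± 0.0896 in toc1-1 (limma adjusted p = 0.00653, and 0.192 with time courses as a random block). AT4G27450, of the same family, was higher under nicotinamide by 1.97 ± 0.112 (limma adjusted p = 4.78e-20). AT1G52200, of the PLAC8 family, was higher by 1.76 ± 0.0997 under nicotinamide (limma adjusted p = 3.92e-20) and by 0.59 ± 0.0997 in toc1-1 (limma adjusted p = 8.26e-06).

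Others with a large rise under nicotinamide were AT4G01870 (2.48 ± 0.094, limma adjusted p = 2.69e-26), AT1G19530 (2.38 ± 0.171, limma adjusted p = 1.4e-16) and AT2G15960 (1.53 ± 0.145, limma adjusted p = 7.56e-13). AT1G19530 ranged from 18.1 to 599 under nicotinamide, 3.17 to 86.0 in toc1-1 and 3.85 to 93.7 untreated. AT3G10020 rose by 0.67 ± 0.0943 (limma adjusted p = 2.42e-08). The neighbours AT1G21670 and AT1G21680, both DPP6 domain-like proteins, rose by 1.46 ± 0.11 and 0.81 ± 0.0719. AT5G62720, an HPP-type integral membrane protein, fell by 1.16 ± 0.0668 (limma adjusted p = 7.57e-20).

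Within the toc1-1 changes, AT4G16146, related to a cAMP-regulated phosphoprotein, was higher by 0.52 ± 0.0922 (limma adjusted p = 1.62e-05), and its nicotinamide difference was -0.16 ± 0.0922 (limma adjusted p = 0.108). The largest fall in toc1-1 was that of 255516_at, by 2.35 ± 0.148 (limma adjusted p = 1.41e-16), and 249375_at fell by 1.65 and 250437_at by 1.36. Among probe sets with a gene name the largest falls were in AT4G30170, AT3G22240, AT1G18980 and AT3G19390, which are described next.

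The 18 probe sets that peaked later in toc1-1 than in untreated seedlings are set beside the other 85. They were divided by the toc1-1 shift, after their values were seen, so that shift had to differ and this is a description. The 18 fitted the untreated cosine less well, with a median R squared of 0.69, against 0.91 for the 85. The median shift of the 18 was 1.77 h in toc1-1 and 1.00 h under nicotinamide, against -3.90 h and 7.61 h for the 85. All 18 peaked from 9.80 to 12.2 h in untreated seedlings, and 17 of the 40 probe sets with an untreated peak before 12 h are among them, against 1 of the 63 that peaked later. Of their 14 tested probe sets, 4 were rhythmic under nicotinamide and 6 in toc1-1; of the 84 tested others, 75 and 77 were. For 15 of the 18 the lowest of the 24 untreated values was 93 h replicate 1, and for 24 of the 85.

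AT4G30170, peroxidase 45, a peroxidase known from roots, is one of the 18. Its signals were 0.622 to 32.4 under nicotinamide (median 11.7), 5.26 to 122 in toc1-1 (median 20.0) and 0.534 to 256 untreated (median 121). At 93 h the untreated replicates read 0.534 and 54.6, and the lowest other untreated array read 52.9. Its mean level fell by 2.25 ± 0.129 under nicotinamide (limma adjusted p = 5.37e-20) and fell by 1.67 ± 0.129 in toc1-1 (limma adjusted p = 9.87e-14). It peaked at 9.15 h under nicotinamide with an amplitude of 0.09, at 12.7 h in toc1-1 and at 10.2 h untreated.

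The labels give aerial tissue, a harvest that leaves out roots, yet root markers gave signal, and most of those tested were lower under nicotinamide and in toc1-1. The root list has 9 genes, all on the array, and AT4G30170 is one of them. The summed signal of the other 8 ranged from 1170 to 3033 under nicotinamide (median 2269), 2161 to 5103 in toc1-1 (median 3729) and 1357 to 6105 untreated (median 4266). Most of that sum is PYK10, a beta-glucosidase abundant in roots, whose mean level fell by 0.70 under nicotinamide (limma adjusted p = 2.53e-11), while its toc1-1 difference was -0.00071 (limma adjusted p = 0.995). The summed signal of the 7 without PYK10, a sum taken after the values were seen, ranged from 22.2 to 105 under nicotinamide (median 63.7), 26.9 to 422 in toc1-1 (median 78.3) and 28.8 to 1069 untreated (median 537). The untreated low of 28.8 was 93 h replicate 1, whose partner read 286. The sum without PYK10 had a 24 h cosine of amplitude 0.85 with a peak at 10.5 h in untreated seedlings and of 0.55 with a peak at 12.0 h in toc1-1. The fits were poor, with an R squared of 0.52 and 0.38, under the 0.6 that the rule asked for. At 61 h the toc1-1 replicates of this sum read 422 and 128. Of the 9 markers, 6 were tested. Under nicotinamide 6 were called lower, where 48.4% of all tested probe sets were, and in toc1-1 5, where 19.6% were. The brightness filter took the mean over all arrays, which untreated signal raised, and AT4G30170 was chosen by its untreated values. These counts are therefore a description, not independent of the choice of probe sets. The part of root RNA in the results for the 18 was not tested, and in bulk tissue fewer cells of a type and less RNA per cell cannot be told apart. With 93 h replicate 1 of the untreated seedlings left out, 89 probe sets passed the rule in place of 103; no named call was lost and 5 were gained.

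**Figure D5:**
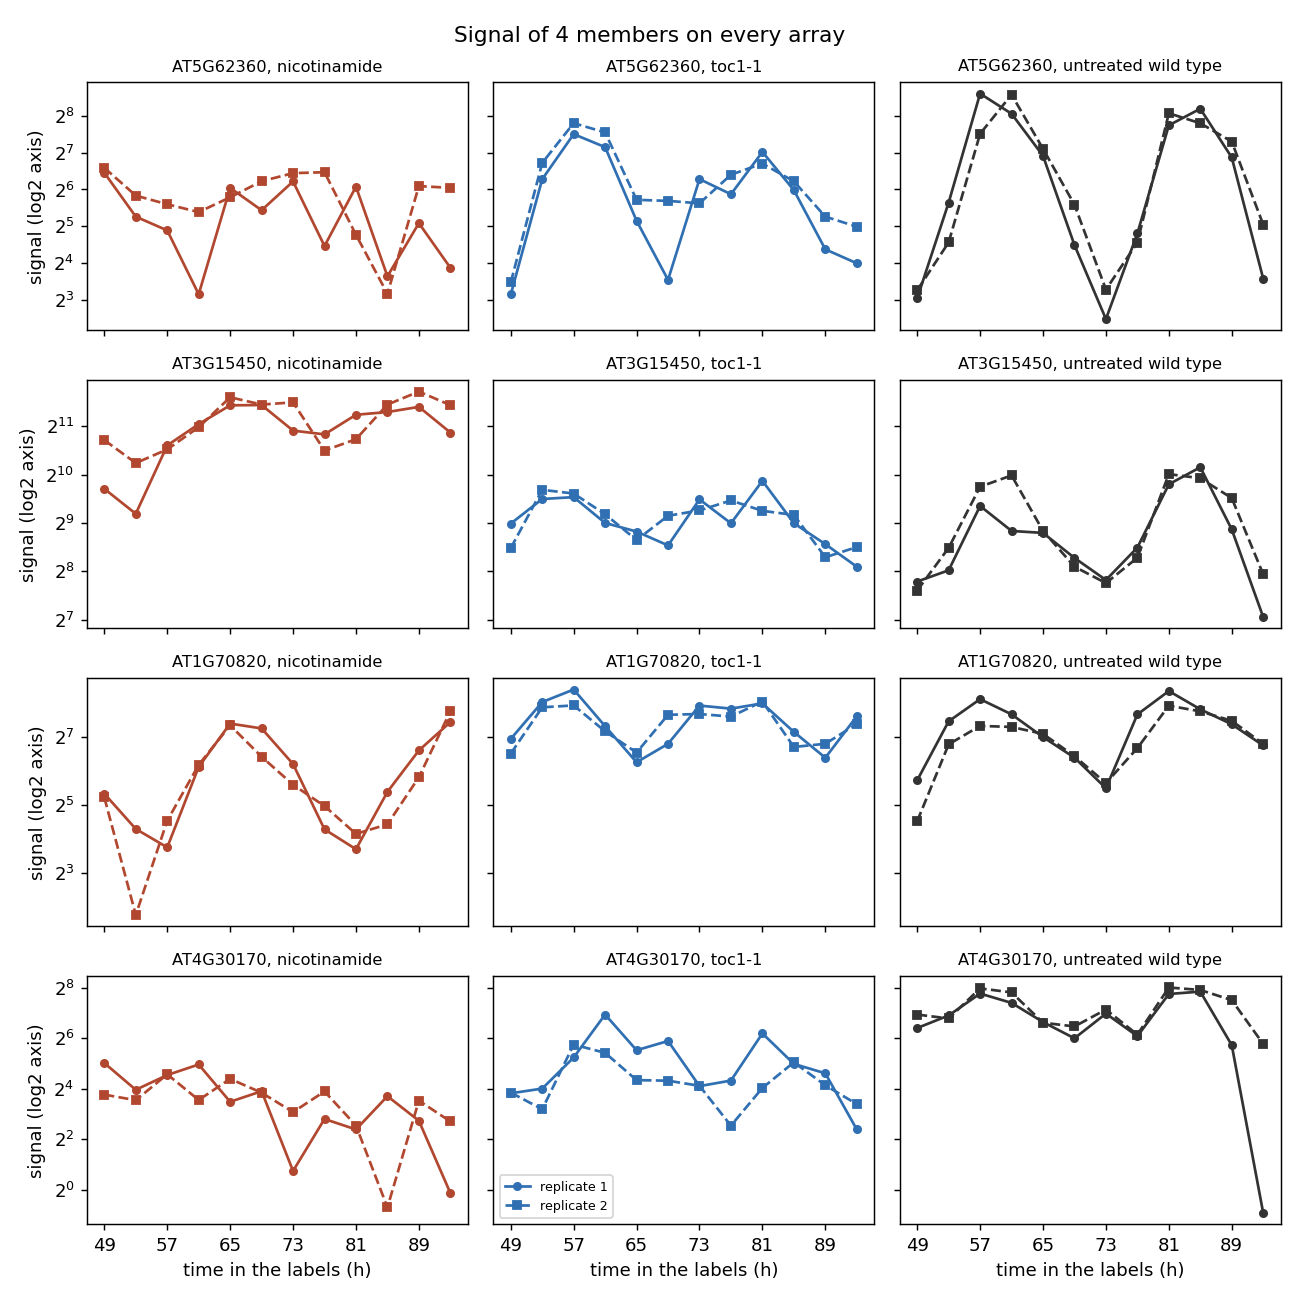
Signal on a log2 axis (y axis) against the time in the labels in hours (x axis) on every array of nicotinamide, toc1-1 and untreated wild-type seedlings for AT5G62360, AT3G15450, AT1G70820 and AT4G30170. Solid lines are replicate 1 and dashed lines replicate 2; AT4G30170 has the low untreated value of 0.534 at 93 h replicate 1.

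AT1G18980, a germin-like protein, peaked at 10.2 h under nicotinamide, 10.3 h in toc1-1 and 10.3 h untreated. The rhythms under nicotinamide and in toc1-1 did not differ by the test (limma adjusted p = 0.963), which does not show that they are equal. The toc1-1 amplitude was 0.47 (limma adjusted p = 0.0239), and it was 0.23 without toc1-1 replicate 1. The mean level of AT1G18980 in toc1-1 fell by 0.89 ± 0.121 (limma adjusted p = 1.35e-07). AT3G19390, a cysteine protease with a granulin repeat, was higher under nicotinamide (1.06 ± 0.105, limma adjusted p = 2.62e-12) and lower in toc1-1 (-0.78 ± 0.105, limma adjusted p = 1.06e-07). AT3G22240 in toc1-1 fell by 0.98 ± 0.169 (limma adjusted p = 9.81e-06), and its nicotinamide difference was -0.08 ± 0.169 (limma adjusted p = 0.671). AT1G22440, a zinc-binding alcohol dehydrogenase-like protein, was lower under nicotinamide (-1.02 ± 0.109, limma adjusted p = 2.4e-11) and in toc1-1 (-0.60 ± 0.109, limma adjusted p = 2.19e-05).

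AT1G19530, AT3G22240 and AT1G22440 were the 3 named genes called rhythmic in neither condition. Their adjusted p values were 0.152, 0.131 and 0.212 under nicotinamide and 0.129, 0.167 and 0.154 in toc1-1. These results changed when single arrays or time courses were left out. Without untreated 93 h replicate 1, both rhythms of AT3G22240 were called, with limma adjusted p values of 0.0344 under nicotinamide and 0.0259 in toc1-1, and so was the toc1-1 rhythm of AT1G22440 (limma adjusted p = 0.0468). Without nicotinamide replicate 2, both rhythms of AT1G19530 were called, with amplitudes of 0.70 under nicotinamide and 0.52 in toc1-1. Its toc1-1 rhythm was also called without nicotinamide replicate 1, again at 0.52. No toc1-1 array was left out in either case, so the toc1-1 amplitude stayed the same while the shared estimate of the spread changed. With a pseudocount of 1 the toc1-1 rhythm of AT1G19530 was called too (limma adjusted p = 0.012). The other 3 probe sets without a call were 249375_at, 250437_at and 254915_s_at.

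The change of mean level from the first to the second cycle differed under nicotinamide for 1 of 98 probe sets (1.03% of all tested), and in toc1-1 for 0 of 98 (0% of all tested). At an unadjusted p under 0.05 in limma the counts were 21 under nicotinamide (21% of all tested) and 5 in toc1-1 (4.65% of all tested). The 1 probe set was 246550_at, whose difference from untreated was -0.89 in the first cycle and 0.16 in the second. Without the 3 arrays whose titles end in 2 the nicotinamide count was 0 (17 unadjusted), without nicotinamide 77 h replicate 1 and 85 h replicate 2 it was 0 (14 unadjusted), and without nicotinamide replicate 2 it was 15. Without either toc1-1 replicate or either untreated replicate it was 0 (11 to 18 unadjusted).

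Values just inside and just outside the limits of the rule lay close together. The smallest amplitudes inside were 0.700928 for 249375_at and 0.701241 for 260412_at, and the nearest outside were 0.699851 for 262131_at and 0.699313 for 252746_at. The R squared of 255516_at was 0.600008 and of AT4G30170 0.600099, against 0.599202 for 248844_s_at outside. Peaks inside ran from 9.79 h for 254818_at to 14.86 h for AT4G16146, and the nearest outside were at 8.75 h for 259751_at and 15.0004 h for 247525_at. With a pseudocount of 1 the rule gave 242 members, and with 64 it gave 44.

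The same thresholds gave 25 probe sets that peaked in the night, 100 around dawn and 40 in the day in untreated seedlings. Their median shift under nicotinamide was 7.52 h, 6.91 h and 8.71 h, against 7.27 h for the dusk probe sets. In toc1-1 it was -3.98 h, -3.68 h and -4.13 h, against -3.75 h. Rhythm in toc1-1 was called for 24 of 25 tested night, 93 of 96 dawn and 37 of 39 day probe sets, and 83 of 98 dusk ones (8.54% of all tested). Under nicotinamide rhythm was called for 21 of 25, 67 of 96 and 29 of 39, and for 79 of 98 dusk ones (32% of all tested). Retained rhythm is thus not particular to the dusk transcripts. Differences between these groups were not tested.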

How the data were processed

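Biotin-labelled RNA was hybridised to 72 ATH1 arrays. The authors deposited linear intensity values. MAS5 and GCOS are named per the submitters' processing notes, with no version given. Leaving out 2% of probe sets at each end, the mean of each array was 100.008 to 100.016. All analysis used log2(signal + 16), a scale on which changes of dim transcripts come out too small. After removal of 64 control probe sets from 22810, the brightest 60% (13647) were tested with limma 3.58.1 in R 4.3.3, with data.table at version 1.17.8: 36 condition and time means, trended moderated variances (36 residual and 6.74 prior degrees of freedom) and Benjamini-Hochberg adjustment, threshold 0.05. Standard errors of amplitude differences came from the delta method, over probe sets rhythmic in either condition. All standard errors and p-values took the arrays of a time course as independent, although each condition has only 2 time courses. With time courses as a random block, arrays of the same time course had a correlation of 0.16. With that block 8 of the 103 named calls were lost and 2 were gained. Periods came from a grid of 18 to 34 h in steps of 0.1 h. The fit was tested on simulated data.

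The members, the lists and most tests were chosen with earlier results of these data known. Named genes are those of largest untreated amplitude, of largest change or amplitude difference, rhythmic in neither condition, in a list or at a limit; other genes and probe sets were named after their values were seen. Gene names are from the supplied annotation and RefSeq. Sequences were not used here. The number of arrays limits the precision. Alternatives tried were pseudocounts of 1 and 64, quantile-normalized arrays, all probe sets tested, an adjusted p under 0.01, a replicate block, a random block, each condition's period, and arrays or time courses left out; leaving out untreated 93 h replicate 1 was chosen after seeing the data.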

Additional observations from a re-analysis of the deposited data

Results flagged for a closer look

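The change of 246550_at from the first to the second cycle, nicotinamide minus untreated, was 1.05 (1.05033; SE 0.218, limma adjusted p = 0.0196), and a test of the difference between the cycles singled it out. The difference from untreated was -0.89 in the first cycle and 0.16 in the second. It was 1 of 98 probe sets tested, and 1.03% of all tested probe sets were called, so the count is no trait of the dusk transcripts. That call was lost under several settings given below, while others gave more calls. The cause was not tested.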

How the results depend on the processing

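Of 156 named results, 103 were called; most calls were lost without toc1-1 replicate 1 (22) and without toc1-1 replicate 2 (16). The rule gave 242 members with a pseudocount of 1 and 44 with one of 64, against 103. The count of lower amplitude under nicotinamide than in toc1-1, 4, was 10 with a pseudocount of 64, 7 with no filter, 0 at an adjusted p under 0.01, 7 with the replicate block, 8 with time courses as a random block and 1 at each condition's best period, and 0 to 7 leaving out a replicate time course. The higher count, 6, was 0 to 10 leaving out a replicate time course. Rhythm differing between nicotinamide and toc1-1 fell to 26 of 98 at each condition's best period, where phases are read at unequal periods. Rhythm in toc1-1 was called for 30 to 88 leaving out a replicate time course. Mean levels in toc1-1 with a random block were higher for 16 and lower for 10. Apart from quantile normalization, the other settings were counted for the dusk transcripts only, without the share of all tested probe sets. The cycle difference under nicotinamide, 1, was 0 at an adjusted p under 0.01, 6 with the replicate block, 6 with a random block, 0 without the 3 arrays of title ending 2, 0 without nicotinamide 77 h replicate 1 and 85 h replicate 2, 2 without untreated 93 h replicate 1, and 0 to 15 leaving out a replicate. In limma, unadjusted p under 0.05 left 10 to 26 for the cycle difference. The nicotinamide median peak was 20.7 h without the 3 arrays and 19.96 to 20.68 h leaving out a replicate, and the period 26 h without the 3 arrays and 26.3 to 26.5 h leaving out a replicate. The mean level of AT2G30600 267523_at was -0.43 without nicotinamide replicate 1 and turned to 0.00721 without nicotinamide replicate 2. The cause was not tested. Deviations of same-numbered replicates correlated over 0.1 in 20 of 36 pairs (median 0.116), 10 of 12 between nicotinamide and untreated, 5 of 12 between nicotinamide and toc1-1 and 5 of 12 between toc1-1 and untreated, a hint of shared variation by number. The numbers were not taken to pair the samples, because the labels do not say what a number marks and not every pair passed 0.1; the replicate block changed no other count by over 1.5 times. With a time course left out, its condition has 1 array per time, assumed to vary like the others. Dim signals limit the values near the lower limit.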
